A study of Mus musculus with 42 samples.

Results

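Among the 56953 genes with a row in the count table, 9 genes around serum response factor were followed, *Srf*, *Myocd*, *Abra*, *Acta1*, *Acta2*, *Tagln*, *Cnn1*, *Myl9* and *Ankrd1*. They were listed by name, with earlier results of these data known, as the factor, its coactivator *Myocd*, *Abra*, which acts on cofactors, and 6 muscle and actin targets, and each of the 9 was found once by matching Ensembl identifiers to GENCODE symbols. SRF is a DNA-binding protein that recognises the CArG box, a short run of A and T between C and G pairs. It is present in most cells, and its partners decide which targets are used. Myocardin, encoded by *Myocd*, is the partner of heart and smooth muscle, whereas the myocardin-related factors enter the nucleus when free actin monomers are used up by polymerisation. Smooth muscle actin and its binding proteins are also expressed for a time in the early heart muscle.

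Both sides of the heart field of 21 mouse embryos were sequenced at E8.5i, when the heart tube loops. The heart field is the progenitor tissue in the dorsal wall of the pericardial cavity, which was cut along the midline after the heart tube, the head and the back had been removed. Wild types were 5 Ccdc40+/+ embryos with rightward looping, and homozygous Ccdc40lnks/lnks mutants were 11 embryos that looped rightward and 5 with inverted looping. The lnks allele is a nonsense mutation of a gene needed for motile cilia and is carried in every cell. Groups are the genotype and looping direction of the labels, and the study's own laterality classes were not used here. Wild types were 4 males and 1 female, mutants with rightward looping 6 males and 5 females, and those with inverted looping 3 males and 2 females. The study places the rightward-looping mutants in more than a single class, so that this group is mixed by that account. Each group thus has as many left as right libraries, and the 2 sides of an embryo form a pair. Nothing in the labels names a batch.

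Libraries held between 36073684 and 62970327 counts. The targeted gene, *Ccdc40*, had between 14.9 and 25.4 CPM (here counts scaled by the library total) in the 10 wild-type libraries and between 8.95 and 14.8 in the 32 mutant libraries, without overlap of the groups. Heart muscle markers were present although the tube had been removed. The sum of 12 such genes (*Myh6*, *Myh7*, *Myl2*, *Myl3*, *Myl4*, *Myl7*, *Tnnt2*, *Tnni1*, *Tnnc1*, *Actn2*, *Ttn*, *Nppa*) lay between 325 and 5001 CPM, which from here on are counts scaled by the effective library size, and that of 8 second heart field markers between 262 and 596. *Myh11*, the defining myosin of mature smooth muscle, had at most 4.15 CPM and a count of 0 in at least 1 library. In bulk tissue, fewer cells of a type and less RNA per cell cannot be told apart.

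Promoters of 6 of the genes were in the RefSeq promoter table used here (*Srf*, *Acta1*, *Acta2*, *Cnn1*, *Myl9*, *Ankrd1*), while *Myocd*, *Abra* and *Tagln* were not. In the 250 bases before the start, both strands were searched for the CArG box by its name, that is 10 letters with 2 C, then 6 letters that are A or T, then 2 G. The 4 promoters with a box or a near match are shown because the genes share SRF as their known regulator, and capitals mark each box, exact or with 1 mismatch.
Srf promoter (GRCm38.p6, chr17:46556163-46556412, minus strand): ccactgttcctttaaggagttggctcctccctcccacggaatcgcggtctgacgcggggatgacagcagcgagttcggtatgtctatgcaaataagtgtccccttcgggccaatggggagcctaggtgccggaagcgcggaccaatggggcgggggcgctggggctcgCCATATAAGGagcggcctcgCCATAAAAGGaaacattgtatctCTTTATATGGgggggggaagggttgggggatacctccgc
Acta1 promoter (GRCm38.p6, chr8:123894776-123895025, minus strand): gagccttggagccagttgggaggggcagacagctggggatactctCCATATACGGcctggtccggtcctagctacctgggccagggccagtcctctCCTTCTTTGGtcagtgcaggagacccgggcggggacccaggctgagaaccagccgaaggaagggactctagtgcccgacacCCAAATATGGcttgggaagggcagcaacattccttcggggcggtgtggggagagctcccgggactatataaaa
Acta2 promoter (GRCm38.p6, chr19:34255374-34255623, minus strand): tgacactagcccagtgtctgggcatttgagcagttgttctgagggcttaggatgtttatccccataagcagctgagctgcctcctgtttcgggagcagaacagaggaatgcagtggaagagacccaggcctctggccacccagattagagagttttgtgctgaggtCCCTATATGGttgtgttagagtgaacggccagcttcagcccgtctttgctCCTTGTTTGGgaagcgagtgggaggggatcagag
Myl9 promoter (GRCm38.p6, chr2:156775214-156775463, plus strand): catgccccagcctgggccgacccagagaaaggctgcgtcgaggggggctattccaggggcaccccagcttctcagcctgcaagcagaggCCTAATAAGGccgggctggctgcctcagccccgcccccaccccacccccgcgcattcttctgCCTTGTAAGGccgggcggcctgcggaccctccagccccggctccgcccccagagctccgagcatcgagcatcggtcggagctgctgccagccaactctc
The *Srf* promoter held 2 exact boxes, with first bases 82 and 62 bases before the start, and a near match at 39. The *Acta1* promoter held 1 exact box at 73 and near matches at 205 and 154, and that of *Myl9* an exact box at 161 and a near match at 99. *Acta2* had no exact box in this window but near matches at 84 and 34. No match was found in the windows of *Cnn1* and *Ankrd1*, which says only that these letters are not in these windows. Of 32841 promoter windows of the same length, 1.47% held an exact box, 18.6% held one with up to 1 mismatch, and 0.0183% held 2 or more exact boxes.

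Levels of the 9 genes spanned a wide range. Between genes they were compared as CPM per kilobase of exonic length, the union of all annotated exons, as means over the 42 libraries. The order can depend on this length, as for *Tagln* and *Srf*, whose medians without it were 4.87 and 10.0 CPM. *Acta2*, smooth muscle actin, was the highest at 113 ± 47.5 (SD). *Myl9*, a regulatory light chain of smooth muscle myosin, followed at 46.6 ± 18.4, and *Ankrd1*, a protein of the sarcomere and nucleus of heart muscle that responds to stretch, at 40.8 ± 20.9. The order of *Acta2* above *Myl9* held in 41 of 42 libraries, whereas *Myl9* exceeded *Ankrd1* in 32, so that the latter 2 were within their spread. *Myocd* reached 29.4 ± 9.48 and exceeded *Cnn1*, an actin-binding calponin at 22.9 ± 10.2, in 36 libraries. *Acta1*, the skeletal muscle actin that is also made by embryonic heart muscle, was lower at 15.2 ± 9.62. *Tagln*, an actin cross-linker, and *Srf* itself lay together at 2.62 ± 1.14 and 2.30 ± 0.355, in an order that changed between libraries, with *Tagln* above in 24. *Abra*, an actin-binding protein of striated muscle that favours nuclear entry of the myocardin-related factors, was lowest at 0.642 ± 0.491, below *Srf* in 42 libraries, with as few as 13 counts. *Srf* thus varied least in proportion to its mean, while *Abra* and *Acta1* varied most.

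**Figure D1:**
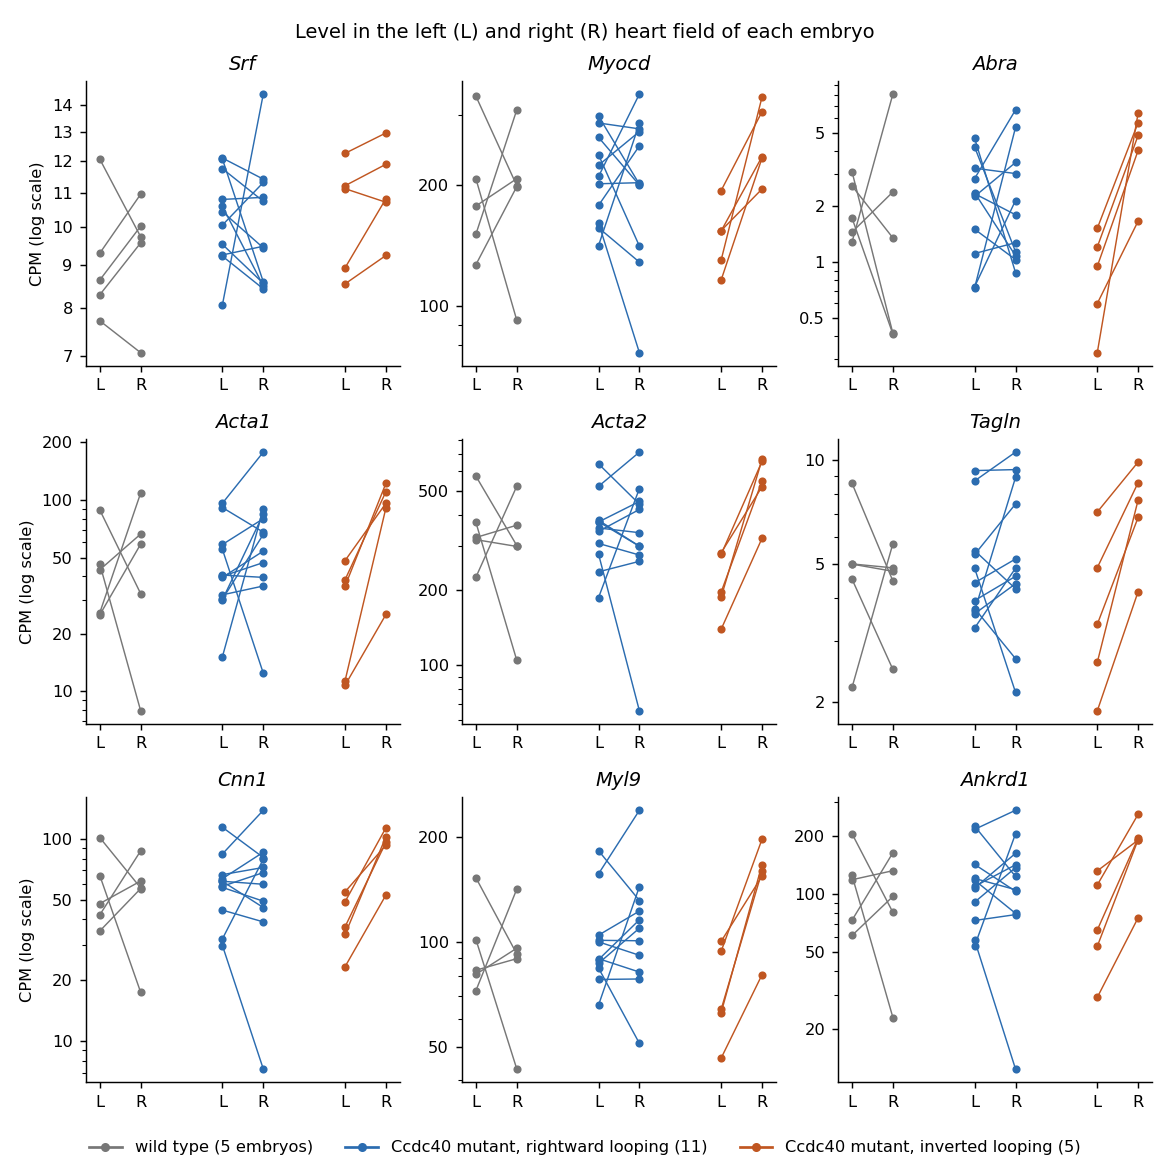
Level of each of the 9 genes in CPM (vertical axis, log scale) in the left (L) and right (R) heart field, with a line joining both sides of an embryo. Lines of the 5 mutants with inverted looping rise from left to right for every gene but *Srf*, which fell in 1 of them, whereas lines of the other 2 groups cross.

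Right and left were first compared in the mutants with inverted looping. Of the 9 genes, 8 were higher on the right, and *Srf* did not pass the test. Their log2 fold changes, right over left, ranged from 0.80 for *Myocd* to 2.28 for *Abra*, that is from 1.74 to 4.84 times the level of the left. In each of these 8 genes the right exceeded the left in 5 of 5 embryos. Tests were edgeR's quasi-likelihood test on counts with the embryo as a block, adjusted by Benjamini-Hochberg over all genes tested, with a threshold of 0.05. In this comparison 468 of 22960 genes passed, or 2.04%, and 1.72% of genes passed with a higher level on the right. The median log2 fold change was 1.24 over the 9 genes and -0.01 over all genes tested. Values per embryo follow in CPM, in the order of embryos 2_7, 4_6, 10_3, 18_2 and 32_2.

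The factor itself changed little. *Srf* had 12.3, 11.2, 8.55, 11.1 and 8.94 on the left and 13.0, 11.9, 9.25, 10.7 and 10.8 on the right. The right was the higher side in 4 embryos and the lower in 18_2, and the ranges overlapped (log2 fold change 0.11 ± 0.09 (SE), adjusted p = 0.651 by edgeR).

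Among the genes that act with SRF, *Myocd* had 154, 194, 154, 130.4 and 116 on the left and 236, 305, 196, 332 and 234 on the right. Its lowest right value exceeded its highest left value by less than 2 CPM, and its log2 fold change was 0.80 ± 0.13 (SE, edgeR adjusted p = 0.0211). *Abra* had 1.52, 1.21, 0.600, 0.326 and 0.951 on the left and 5.67, 4.83, 1.67, 6.40 and 4.01 on the right. The sides did not overlap, and embryo 18_2 held both the lowest left and the highest right value. Its log2 fold change of 2.28 ± 0.35 (SE, edgeR adjusted p = 0.0193) rests on few reads, between 13 and 84 counts on the left and between 68 and 363 on the right.

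For the actins, *Acta2* had 282, 278, 139, 187 and 196 on the left and 518, 655, 322, 667 and 546 on the right. No left value reached a right one, with means of 217 ± 61.8 and 542 ± 139 (SD, n = 5 each), and the log2 fold change was 1.34 ± 0.12 (SE, edgeR adjusted p = 0.00329). *Acta1* had 48.2, 38.3, 10.8, 11.4 and 35.5 on the left and 96.1, 110.5, 25.2, 90.9 and 122 on the right. Here the ranges overlapped, since 10_3 was low on both sides, but within each embryo the right was higher (1.70 ± 0.25, SE, edgeR adjusted p = 0.0162). Muscle actins are near-identical in sequence, so that their reads could be shared among *Acta1*, *Acta2*, *Actc1* and *Actg2*, and the handling of such reads was not given in the sources used here.

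For the proteins that bind actin or myosin, *Cnn1* had 54.8, 49.0, 23.4, 36.8 and 33.7 on the left and 93.3, 114, 52.8, 96.4 and 103 on the right. *Myl9* had 100.4, 94.0, 46.4, 64.0 and 62.6 on the left and 155, 197, 80.5, 159.6 and 167 on the right. For both genes embryo 10_3 was the lowest on each side, so that ranges overlapped while every embryo had more on the right. Their log2 fold changes were 1.24 ± 0.11 and 1.05 ± 0.11 (SE, edgeR adjusted p = 0.00329 and 0.00564). *Tagln* had 7.07, 4.89, 1.89, 2.61 and 3.35 on the left and 9.87, 8.60, 4.17, 7.67 and 6.83 on the right, a log2 fold change of 1.00 ± 0.16 (SE, edgeR adjusted p = 0.0229). *Ankrd1* had 132, 111, 29.2, 65.2 and 53.7 on the left and 190.4, 259, 75.5, 194 and 192 on the right, a log2 fold change of 1.31 ± 0.16 (SE, edgeR adjusted p = 0.00887). The sides overlapped for these 2 genes as well, by the low values of 10_3 and the high left values of 2_7. Strand use was not given in the sources used here, and *Acta2*, *Tagln* and *Cnn1* each overlap a protein-coding gene of the other strand (*Stambpl1*, *Pcsk7* and *Elof1*), so that reads could be shared with these genes, which was not measured.

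The number of calls moved with the fit. When all 42 libraries shared 1 estimate of the spread, 1 of the 9 genes passed (*Myl9*, adjusted p = 0.0459 by edgeR, and 0.0799 for *Acta2*), where 0.535% of all genes did. Without the pairing of sides 4 passed (1.33% of all genes), as with the males alone (0.23%), without embryo 4_6 (0.96%) and without embryo 32_2 (0.599%). An exact sign-flip test over the 5 embryos gave p = 0.0625 for each of the 8 genes, two-sided, which is the smallest that this test can give with 5 embryos.

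**Figure D2:**
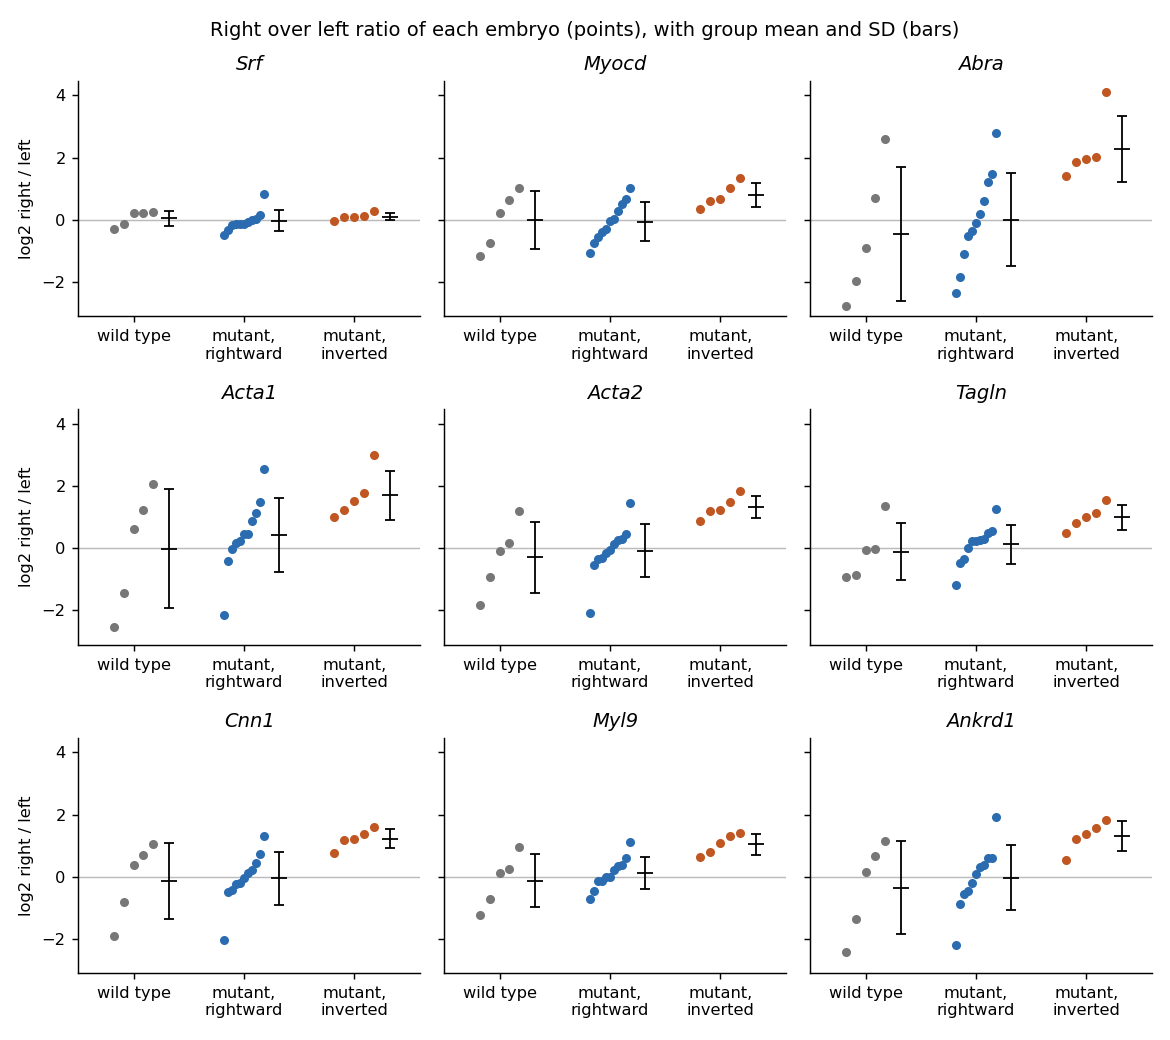
Log2 ratio of right over left CPM (prior count 2) for each embryo (points) by group, with the mean and SD of the group (bars). The ratios of the 5 mutants with inverted looping lie above 0 for 8 genes, and those of the 5 wild types and 11 mutants with rightward looping lie on both sides of 0 for all 9 genes.

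In the wild types, 0 of the 9 genes were asymmetric, as 0 of 23182 genes (0%) passed by edgeR, where 639 genes and none of the 9 had an unadjusted p under 0.05. Log2 fold changes lay between -0.49 ± 0.79 (SE) for *Abra* and 0.05 ± 0.68 for *Acta1*. Embryos differed in which side had more. *Acta2* had 318, 571, 373, 325 and 225 CPM on the left and 299, 301, 104, 364 and 521 on the right of embryos 7_1, 8_1, 10_1, 17_7 and 22_4. The left was thus the higher side in the first 3 of these and the right in the other 2. The spread of the log2 ratios, 1.15 (SD), was wider than the 0.35 of the mutants with inverted looping. For *Acta1* the log2 ratio was -2.54 in 10_1 and 2.07 in 22_4.

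In the mutants with rightward looping, again 0 of the 9 genes were asymmetric, where 6 of 22795 genes (0.0263%) passed by edgeR, and 818 genes but none of the 9 had an unadjusted p under 0.05. Log2 fold changes ranged from -0.07 ± 0.22 (SE) for *Acta2* to 0.44 ± 0.30 for *Acta1*. Over the 11 embryos *Acta2* had a lowest, median and highest level of 186, 354 and 640.0 CPM on the left and 65.5, 339 and 713 on the right. *Myocd* had 142, 211 and 298 on the left and 76.6, 203 and 338 on the right. *Abra* had 0.730, 2.34 and 4.66 on the left and 0.881, 1.81 and 6.63 on the right. Both sides covered much the same range for these genes, with the lowest *Acta2* and *Myocd* levels on the right of embryo 2_2. *Acta1* had a median of 40.0 on the left and 66.1 on the right and was higher on the right in 8 of 11 embryos (mean log2 ratio 0.43 ± 1.18, SD, exact sign-flip test, two-sided p = 0.262). *Tagln* was higher on the right in 8 of 11 as well (0.12 ± 0.63, exact p = 0.533), and *Srf* in 4 of 11 (-0.04 ± 0.34, exact p = 0.751).

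Within an embryo the genes moved together. Leaving *Srf* aside, all 8 genes were higher on the right in 5 of 5 mutants with inverted looping, in 3 of 11 with rightward looping (1_6, 19_4 and 19_6) and in 1 of 5 wild types (22_4), and all 8 were higher on the left in the mutant 2_2 and the wild types 8_1 and 10_1. These 8 are the genes that passed in the mutants with inverted looping, so their agreement in that group was largely set by the choice. With *Srf* counted, the only change was that 18_2 had 8 of 9 genes higher on the right. The median log2 ratio over the 9 genes lay between 0.62 and 1.54 in the mutants with inverted looping. It ranged from -2.02 to 1.31 in the mutants with rightward looping and from -1.83 to 1.16 in the wild types. Single embryos of these 2 groups therefore had side differences as large as those of inverted looping, but of either sign. In 2_2, *Acta2* had a log2 ratio of -2.09 and *Cnn1* of -2.02, whereas in 19_4 they had 1.45 and 1.31.

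Heart muscle markers moved with these genes. In 21 of 21 embryos, that is in 5 of 5, 11 of 11 and 5 of 5 of the groups, the median log2 ratio of the 12 markers had the same sign as that of the 9 genes. In the mutants with inverted looping 10 of the 12 markers passed on the right and 0 on the left, with a median log2 fold change of 1.17, where 1.72% of all genes passed on the right. Their summed level lay between 1188 and 2267 CPM on the left and between 2200 and 4661 on the right of these embryos, between 1602 and 4223 and between 808 and 3533 in the wild types, and between 1089 and 4508 and between 325 and 5001 in the mutants with rightward looping. None of the 12 was at 0 in any library. Set against the median of these markers in the same embryo, the log2 ratio of *Acta2* was higher by 0.24 ± 0.21 (SD, n = 5 embryos with inverted looping, above in 5 of 5), that of *Cnn1* by 0.14 ± 0.05 (5 of 5), that of *Acta1* by 0.61 ± 0.63 (5 of 5) that of *Abra* by 1.18 ± 0.98 (5 of 5) and that of *Ankrd1* by 0.21 ± 0.23 (4 of 5). That of *Tagln* differed by -0.10 ± 0.31 (above in 2 of 5), that of *Myl9* by -0.05 ± 0.09 (above in 1 of 5), that of *Myocd* by -0.30 ± 0.31 (1 of 5) and that of *Srf* by -0.99 ± 0.29 (0 of 5). In the wild types, *Acta2* lay below the markers by this measure, at -0.28 ± 0.27 (above in 1 of 5), as did *Ankrd1* (-0.35 ± 0.31, 0 of 5) and *Cnn1* (-0.11 ± 0.09, 0 of 5), and the other 6 genes had means between -0.45 for *Abra* and 0.06 for *Srf*. With rightward looping, *Acta2* had -0.11 ± 0.17 (above in 3 of 11) and *Cnn1* -0.08 ± 0.17 (3 of 11), whereas *Acta1* had 0.40 ± 0.43 (10 of 11), and the other 6 lay between -0.08 for *Myocd* and 0.10 for *Tagln*. The part of heart muscle content in the side differences of the 8 genes was not tested.

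**Figure D3:**
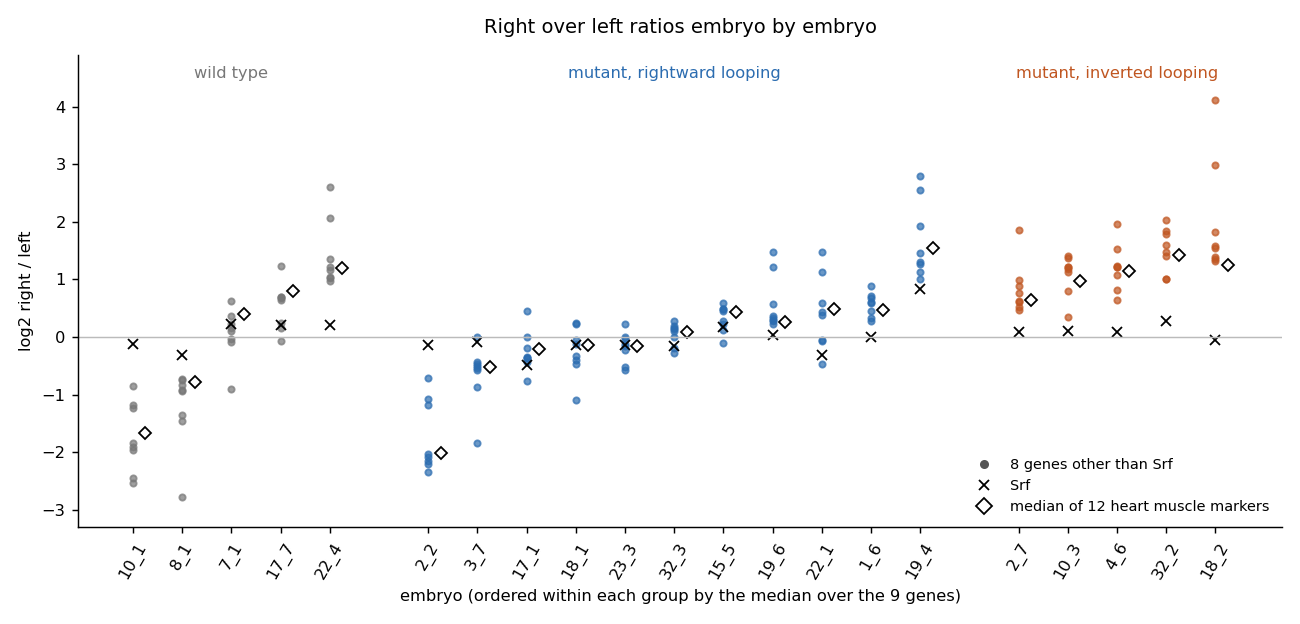
Log2 ratio of right over left for each embryo (horizontal axis, ordered within its group), with 8 genes as filled points, *Srf* as a cross and the median of 12 heart muscle markers as an open diamond. Diamonds lie among the points of their embryo, on the same side of 0 as the median of the 9 genes in 21 of 21 embryos, and all filled points of the 5 mutants with inverted looping are above 0.

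Markers of other tissues were weighed by their lists too. On the right of mutants with inverted looping, 3 of 6 smooth muscle markers passed (*Lmod1*, *Actg2* and *Synpo2*), as did 3 of 7 of the sinus venosus and proepicardium (*Shox2*, *Tbx5* and *Osr1*) and 1 of 8 of the second heart field (*Mef2c*). Smooth muscle markers can also be SRF targets, so these lists are not separate. *Lmod1* and *Synpo2* are counted again below among the other targets, and *Mef2c* among the upstream genes. No marker of endothelium (5), foregut endoderm (6), blood (4) or somites (4) passed in this comparison by edgeR, with 3, 2, 0 and 3 of them at an unadjusted p under 0.05. Of all 22960 genes tested here, 2.04% passed, 1.72% with more on the right, and 3468 had an unadjusted p under 0.05. In the difference of asymmetry from the wild types, the endothelial *Tek* passed towards the right (0.90 ± 0.17, SE, edgeR adjusted p = 0.0165) and the somite gene *Tcf15* towards the left (-2.39 ± 0.50, adjusted p = 0.0300), and the 4 somite markers had a median of -1.89. All 3 neural tube markers were lower on the right at an unadjusted p under 0.05, with a median log2 fold change of -2.02, and 1 of them passed by edgeR, *Pax6* (-2.02 ± 0.36, SE), and the summed level of the 3 lay between 21.3 and 51.4 CPM on the left and between 4.41 and 29.7 on the right of these embryos. The summed level of the 4 somite markers lay between 105 and 173 on the left and between 62.9 and 121 on the right, against 38.3 to 175 and 85.7 to 290.3 in the wild types and 26.4 to 169 and 70.2 to 211 with rightward looping. In the wild types these neural sums were 8.38 to 57.5 on the left and 7.64 to 122 on the right, and in the mutants with rightward looping 3.88 to 33.9 and 5.50 to 52.0. The summed level of the 6 smooth muscle markers lay between 93.2 and 114 CPM on the left and between 117 and 159 on the right with inverted looping, against 109.8 to 158 and 87.2 to 145 in the wild types and 111 to 165 and 106 to 167 with rightward looping. Their part in the result was not tested.

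The difference of asymmetry between groups was then tested as such, by the interaction between side and group over the 42 libraries, with the embryo as a block. Between the inverted and the rightward mutants, 0 of the 9 genes passed, where 82 of 26335 genes (0.311%) did by edgeR and 2768, 7 of the 9 genes among them, had an unadjusted p under 0.05. The differences of log2 fold change, inverted minus rightward, were 1.39 ± 0.41 (SE) for *Acta2* (edgeR adjusted p = 0.167), 0.93 ± 0.28 for *Myl9* (adjusted p = 0.181), 1.26 ± 0.41 for *Cnn1* (adjusted p = 0.226), 2.28 ± 0.80 for *Abra* (adjusted p = 0.273) and 0.85 ± 0.33 for *Myocd* (adjusted p = 0.333). That of *Srf* was 0.14 ± 0.15 (adjusted p = 0.807). Against the wild types, 0 of the 9 genes passed, where 135 of 26335 genes (0.513%) did and 3569, 7 of the 9 among them, had an unadjusted p under 0.05. Here *Acta2* differed by 1.62 ± 0.49 (SE, edgeR adjusted p = 0.131) and *Myl9* by 1.17 ± 0.33 (adjusted p = 0.113). By DESeq2 3 of the 9 passed in this comparison (*Abra*, *Tagln* and *Myl9*), where 5.16% of all genes did, and without the wild type 22_4 the edgeR test passed 4, where it passed 2.39% of all genes. The 2 comparisons share the mutants with inverted looping. Between the rightward mutants and the wild types, 0 of 26335 genes (0%) and so 0 of the 9 passed by edgeR, where 800 genes and none of the 9 had an unadjusted p under 0.05.

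The ratios per embryo were also tested 1 gene at a time, without adjustment and for the 9 genes alone, so that no share over all genes is at hand. An exact permutation test of the ratios, two-sided, over the 4368 ways to assign 5 of 16 mutants was under 0.05 for 8 of the 9 genes between inverted and rightward looping, with p = 0.00206 for *Acta2*, 0.00298 for *Myl9*, 0.00504 for *Cnn1* and 0.0458 for *Acta1*. For *Srf* the exact p was 0.420. By edgeR's unadjusted p, 7 of the 9 and 2768 of 26335 genes were under 0.05 in this comparison. Against the wild types 7 of the 9 and 3569 genes were, and 0 of the 9 passed after adjustment in either comparison. Each gene had at least 1 mutant with rightward looping whose ratio reached the lowest of the inverted group, and for *Acta2*, *Cnn1* and *Myl9* this was 1 embryo. Against the wild types, over 252 arrangements, exact p was under 0.05 for *Cnn1* (0.0159), *Acta2* (0.0238), *Myl9* (0.0238), *Ankrd1* (0.0317) and *Abra* (0.0476). These are 27 tests in all on correlated genes, unadjusted, and 0 of the 9 between rightward looping and the wild types were under 0.05.

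Levels of each side were compared between groups with sex in the model. On the left of mutants with inverted looping, 8 of the 9 estimates were below those of rightward looping and 0 of the 9 genes passed, where 3 of 24838 genes (0.0121%) did by edgeR. An unadjusted p under 0.05 was found for 5 of the 9 (*Myocd*, *Abra*, *Acta2*, *Cnn1* and *Myl9*) and for 1960 of all genes. The differences were -0.72 ± 0.22 (SE, log2) for *Acta2* (adjusted p = 0.428 by edgeR), -1.37 ± 0.43 for *Abra* (adjusted p = 0.428), -0.59 ± 0.25 for *Cnn1* and -0.48 ± 0.19 for *Myocd*. On the right the 9 estimates were above 0, with 0.64 ± 0.33 for *Acta2*, 0.98 ± 0.57 for *Abra*, 0.59 ± 0.36 for *Cnn1* and 0.35 ± 0.26 for *Myocd*, and 0 of the 9 passed, where 2 of 24859 genes (0.00805%) did and 1060, none of the 9 among them, had an unadjusted p under 0.05. Neither side alone thus held a difference past the threshold for any of these genes. Against the wild types, the left of the inverted group again had 0 of 9 genes past the threshold (7 of 24838 genes, 0.0282%, with 3 of the 9, *Abra*, *Acta2* and *Cnn1*, among 1775 genes at an unadjusted p under 0.05), with -0.79 ± 0.25 for *Acta2*, and the right had 0 of 9 (0 of 24859 genes, 0%, with 1474 at an unadjusted p under 0.05 and none of the 9 among them), with 0.68 ± 0.40 for *Acta2*. Between rightward looping and wild types, 0 of 9 passed on the left (6 of 24838 genes, 0.0242%) and on the right (3 of 24859 genes, 0.0121%), none of the 9 had an unadjusted p under 0.05 on either side, where 1247 genes on the left and 816 on the right did, and no difference exceeded 0.36 in size.

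The other genes of the pathway were read from fixed lists, in the mutants with inverted looping. Of 23 genes upstream of the targets or cofactors of SRF, 11 had an unadjusted p under 0.05 by edgeR, as had 3468 of 22960 genes in all. Their median log2 fold change was 0.13, against -0.01 over all genes tested. After adjustment, where 1.72% of all genes passed on the right, 0 passed on the left and 3 on the right. These were *Smyd1*, a muscle methyltransferase (1.43 ± 0.13, SE, edgeR adjusted p = 0.00365), *Nkx2-5*, a cardiac homeobox factor (1.06 ± 0.14, adjusted p = 0.0111), and *Mef2c*, a muscle transcription factor (0.73 ± 0.09, adjusted p = 0.00759). The myocardin-related factors *Mrtfa* and *Mrtfb* had 0.20 ± 0.06 and 0.20 ± 0.07 and did not pass (adjusted p = 0.168 and 0.197). *Rhoa*, the GTPase that drives actin polymerisation, had 0.03 ± 0.04.

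Of 32 other targets in the actin cytoskeleton and contractile apparatus, 13 were higher on the right and 0 on the left, where 1.72% of all genes passed on the right. The 32 had a median of 0.28, with 23 at an unadjusted p under 0.05 by edgeR, as had 3468 of 22960 genes in all. The 5 with the largest change were *Lmod1*, an actin nucleator (1.19 ± 0.17, SE, edgeR adjusted p = 0.0146), *Synpo2*, an actin-binding protein (1.14 ± 0.18, adjusted p = 0.0209), *Actc1*, cardiac actin (1.12 ± 0.08, adjusted p = 0.00257), *Des*, the intermediate filament desmin (1.02 ± 0.14, adjusted p = 0.0133), and *Nexn*, a filament protein of the sarcomere (0.92 ± 0.10, adjusted p = 0.00538). *Actc1* had between 260 and 604 CPM on the left and between 576 and 1306 on the right. The actins of every cell, *Actb* and *Actg1*, had 0.06 ± 0.04 and -0.04 ± 0.04 and did not pass. *Vcl* and *Flna*, which link actin to adhesions and into networks, had 0.24 ± 0.07 and 0.17 ± 0.05 and did not pass either.

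Other targets of SRF are reached through the ternary complex factors, a separate set of partners. Of 8 such genes, 6 were tested, 3 had an unadjusted p under 0.05, as had 3468 of 22960 genes in all, and 1 passed (2.04% of all genes did), with more on the right, *Fos*, with 0.95 ± 0.15 (SE, edgeR adjusted p = 0.0224), while *Egr1* had 0.53 ± 0.14 (adjusted p = 0.119). In the wild types and in the mutants with rightward looping, 0 genes of these 3 lists passed by edgeR (0 had an unadjusted p under 0.05 in the wild types, and 3 did with rightward looping, 1 upstream gene and 2 other targets). In the difference between inverted and rightward looping, 0 of the genes of these lists passed, while 5 of the 23 upstream genes, 17 of the 32 other targets and 2 of the 8 ternary complex factor targets had an unadjusted p under 0.05, as had 2768 of 26335 genes in all. *Smyd1* had the lowest adjusted p of these (1.62 ± 0.36, SE, edgeR adjusted p = 0.0517).

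**Figure D4:**
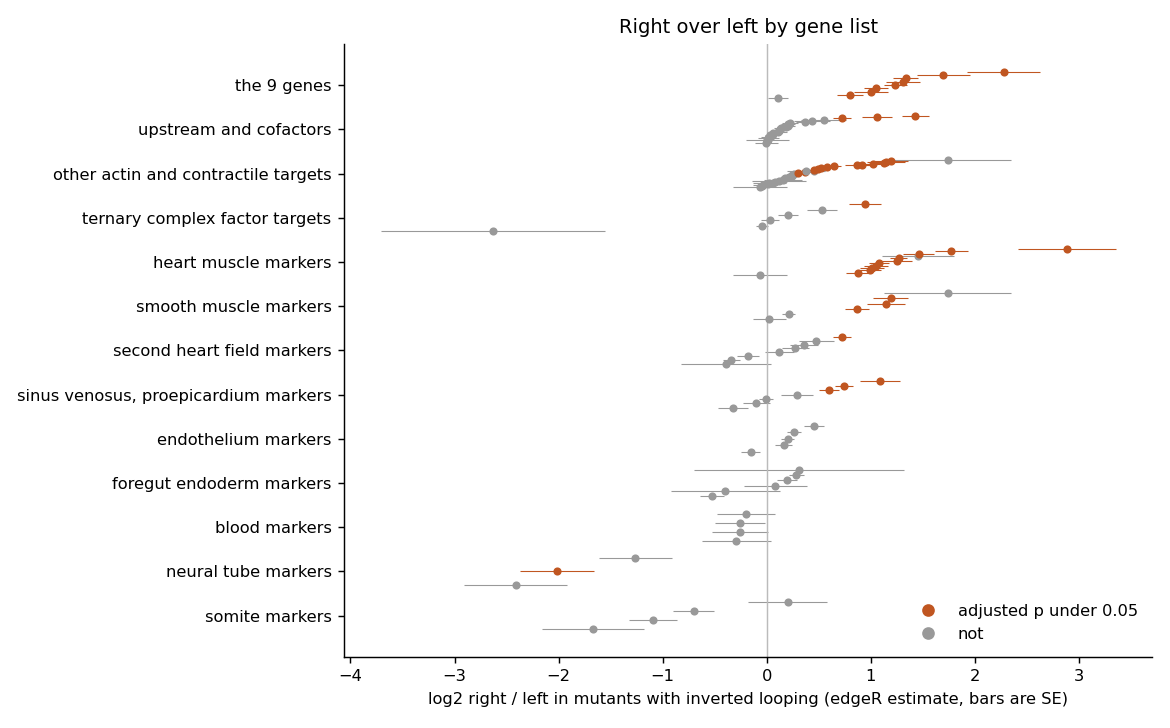
Log2 fold change of right over left in the 5 mutants with inverted looping (horizontal axis, edgeR estimate with SE) for the genes of each list (rows), coloured where the adjusted p is under 0.05. The called genes among the 9, 23 upstream, 32 other targets and 12 heart muscle markers lie on the right of 0, and 1 neural tube marker lies on the left.

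The genes whose levels followed each of the 9 most closely were sought over the 42 libraries among 26335 genes, by Pearson's r of log2 CPM. As libraries share tissue composition and pairs share an embryo, r is a description. *Acta2* was closest to *Myom1*, *Fbxl22* and *Popdc2* (r = 0.98, 0.97 and 0.97), *Cnn1* to *Sh3bgr*, *Tnni1* and *Tnnc1* (0.98, 0.98 and 0.98), and *Ankrd1* to *Actn2*, *Hspb2* and *Tcap* (0.97, 0.97 and 0.97). *Myl9* was closest to *Tpm1*, *Casq1* and *Klhdc8b* (0.95, 0.95 and 0.95), *Acta1* to *Myl3*, *Myl9* and *Myl2* (0.93, 0.93 and 0.90), and *Abra*, which is below 1 CPM in part of the libraries, to *Myh7*, *Myl2* and *Mtus2* (0.89, 0.85 and 0.84). *Myocd* was closest to *Mef2c*, *Rbm24* and *Tgfb2* (0.94, 0.94 and 0.94) and *Tagln* to *Cnn2*, *Myl9* and *Myadm* (0.89, 0.88 and 0.87). *Srf* stood apart with lower values, for *Unc5b*, *Ctnnd1* and *Mapkapk2* (0.77, 0.76 and 0.76). Among the 9 genes themselves, *Acta2* had r = 0.96 with *Cnn1*, 0.93 with *Myl9* and 0.56 with *Srf*, and *Srf* had its highest r, 0.70, with *Tagln*.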

How the data were processed

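RNA was sequenced from paired left and right heart fields. The authors trimmed adapters, removed duplicates, aligned reads to GRCm39 with STAR and deposited raw counts per Ensembl gene from featureCounts (Subread 2.0.6). Counts were mapped to GENCODE symbols, and all columns were used. With R 4.3.3 and edgeR 4.0.16, genes were kept by filterByExpr (min.prop 0.2, large.n 50, at least 5 counts by min.count and 10 in total), normalized by TMM and tested by quasi-likelihood, adjusted by Benjamini-Hochberg, after a test on simulated data. The embryo was the block for right against left, since both sides come from 1 animal, and sex the covariate for levels. Log2 ratios had a prior count of 2. Alternatives were DESeq2 1.42.0 (local fit), its size factors, library size alone, no filter, a fit of all libraries, no block, males alone, a prior count of 0.5 and each embryo left out. Named genes are the 9, up to 5 of each pathway list by size of change among those past the threshold, marker genes beside a result, and the 3 genes most like each of the 9. Genes that did not pass, such as *Mrtfa* or *Actb*, were added for their role. The 9 genes and the lists were chosen with earlier results of these data known. Promoter sequences came from RefSeq (GRCm38.p6).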

Additional observations from a re-analysis of the deposited data

Results flagged for a closer look

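Of 54 groups of 5 libraries or ratios checked for a value far from the others, 2 held one, both for *Abra*. The check sets the gap of the highest or lowest value to its neighbour over the range of the group against Dixon's 95% critical value, which is built to flag about 1 in 20 groups by chance. The wild type 22_4 had 8.08 CPM of *Abra* on the right, and the mutant 18_2 had an *Abra* log2 ratio of 4.12 among the mutants with inverted looping.

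Differences of the log2 ratio between groups had an unadjusted exact permutation p under 0.05 in 13 of 27 tests. These tests were run on the 9 genes alone, whose levels are correlated, and both comparisons with inverted looping share its embryos. By edgeR's unadjusted p, 2768 of 26335 genes were under 0.05 for inverted against rightward looping. For inverted looping against the wild types 3569 were, and for rightward looping against the wild types 800. Of the 27 differences of the 9 genes, 14 had an unadjusted p under 0.05 in edgeR's fit and 0 of 27 passed after adjustment over all genes, whereas DESeq2 passed 3 of the 9 genes against the wild types. Between inverted and rightward looping the differences with an exact p under 0.05 were 0.85 for *Myocd* (exact p = 0.0181), 2.27 for *Abra* (0.00984), 1.27 for *Acta1* (0.0458), 1.41 for *Acta2* (0.00206), 0.87 for *Tagln* (0.0130), 1.29 for *Cnn1* (0.00504), 0.93 for *Myl9* (0.00298) and 1.34 for *Ankrd1* (0.0163). Between inverted looping and the wild types they were 2.74 for *Abra* (exact p = 0.0476), 1.62 for *Acta2* (0.0238), 1.35 for *Cnn1* (0.0159), 1.17 for *Myl9* (0.0238) and 1.67 for *Ankrd1* (0.0317).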

How the results depend on the processing

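The number of the 9 genes called on the right of mutants with inverted looping, 8, was 4 without the replicate block (embryo pairing), 4 with the males alone and 1 in a fit of all libraries, and between 4 and 8 without 1 embryo (4 without 4_6 or 32_2). It stayed at 8 with DESeq2, its size factors, library size alone and no filter. The cause of the lower counts was not tested. The males alone and the fits without 1 embryo leave fewer embryos. In the fit of all libraries *Acta2* had 1.33 ± 0.342 (SE), against 1.34 ± 0.117 in the main fit. For the difference from the wild types, the count of 0 became 3 with DESeq2 (*Abra*, *Tagln*, *Myl9*) and between 0 and 4 without 1 embryo (4 without the wild type 22_4). Every other count of called members, for 10 comparisons, was 0 under each setting run. The log2 fold changes of the 8 genes in inverted looping kept their sign throughout. Sign changes beyond 1 SE arose in comparisons without a call: with the males alone, *Acta1* (-0.10) and *Myl9* (-0.12) in rightward looping, *Abra* (-0.86) and *Cnn1* (-0.54) in the difference of rightward looping from wild types, and *Acta1* (0.33) in the left level of these groups. Without 1 wild type, *Myocd* ranged from -0.26 to 0.29 and *Cnn1* from -0.40 to 0.33 in the wild types (highest without 10_1), and *Abra* from -0.85 to 0.78 in the right level of rightward looping against wild types (highest without 22_4). A further 153 sign changes joined values that were both within 1 SE of 0. With 5 embryos an exact sign-flip test cannot pass 0.05.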
